A study of Anableps anableps with 8 samples.

Results

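The Wnt ligands, receptors and modulators of the retina of Anableps anableps were taken as every gene of the deposited gene table whose symbol began with wnt and a digit, fzd, sfrp, dkk, rspo, lgr4, lgr5, lgr6, frzb, notum, axin, lrp5, lrp6, tcf7 or lef1. This rule gave 63 genes of 22934. They comprised 19 Wnt ligands, 12 frizzled receptors, 2 LRP co-receptors, 3 LGR receptors, 5 R-spondins, 13 secreted inhibitors of the sfrp, frzb, dkk and notum families, 4 axins and 5 TCF/LEF transcription factors. The symbols were read as the table gives them, and 6 symbols (AXIN1, AXIN2, FZD1, RSPO2, TCF7L1 and sfrp1a) each stood for a pair of genes, printed here with their identifiers.

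The study profiled single nuclei of whole retinas from adult fish. Its title asks how the ventral retina of this four-eyed fish, which looks into the air, was remodelled. The labels gave 8 technical sublibraries of 1 group, prepared from 5 biological replicates, with no strain, genotype or treatment. The gene-level counts held 2 retina names in 2 of the sublibraries, called retina 1 and retina 2 here, and neither name matched a label. Whether they are separate animals is not stated, so the main values are given for each retina, the others with the retinas summed, and no p-value was computed.

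Wnt proteins are secreted lipid-modified ligands that bind frizzled receptors with the LRP5 and LRP6 co-receptors. In the canonical pathway binding keeps β-catenin from an axin-containing destruction complex, and TCF/LEF factors then carry it to target genes. R-spondins bind LGR receptors and raise the number of frizzled receptors at the membrane, whereas SFRP and FRZB proteins bind Wnts, several DKK proteins block LRP5 and LRP6, and NOTUM removes the lipid from Wnts. In the vertebrate eye this pathway is known for roles in the ciliary margin, the pigment epithelium, the retinal vessels and the dorsal fate of the optic cup, where tbx5 genes are dorsal and vax2 is ventral.

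Barcodes with at least 500 unique molecular identifiers (UMIs) were taken as nuclei, which gave 3221 nuclei with a median of 3787 UMIs in retina 1 and 3209 with a median of 4082 in retina 2. Classes are clusters named from marker lists, and "-like" marks such a name. They ranged from 66 iridophore-like to 1594 cone-like nuclei. An unnamed cluster of 160 nuclei carried as many microglial as connective tissue markers and is called the connective/microglia cluster. Another of 102 nuclei carried 10 oligodendrocyte markers beside a leading glial transporter gene and is called the myelin cluster. A group of 141 barcodes with more than 50000 UMIs held 27.4% of all UMIs in nuclei, and 91 of them were in the ganglion/amacrine-like cluster.

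All 63 members had at least 1 UMI in nuclei. Together they held 51858 UMIs, 0.0948% of all. The counts were unequal, with 15 members at 1000 UMIs or more, 36 at 50 or more, 16 between 10 and 49, and 11 below 10. Every axin, LRP, LGR and TCF/LEF gene passed 50 UMIs, as did 9 of 19 ligands, 5 of 12 frizzled genes, 3 of 5 R-spondins and 5 of 13 secreted inhibitors. UMI shares are not corrected for transcript length, so levels are compared between classes for 1 gene and never between genes. Levels are UMIs of the gene per 1000000 UMIs of the class (CPM), and intervals are 95% and cover counting error only.

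**Figure D1:**
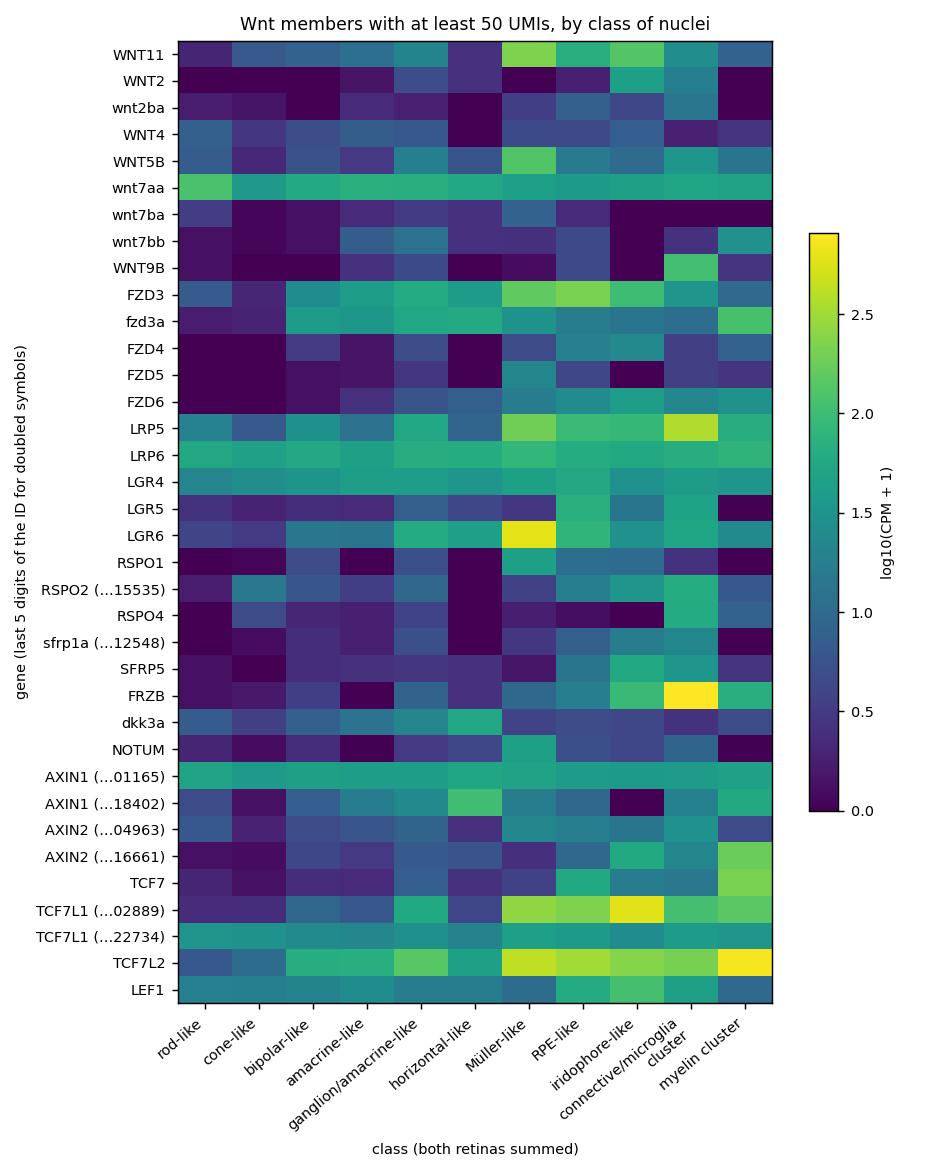
Each cell gives log10 of CPM plus 1 for 1 of the 36 members with at least 50 UMIs (rows, by role) in 1 of 11 classes of nuclei (columns, both retinas summed). LRP6, LGR4 and the AXIN1 copy ENSABLG00000001165 are near even across columns, while LGR6 stands out in Müller-like nuclei (619 CPM) and FRZB in the connective/microglia cluster (807 CPM).

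A member was called class-enriched when the same class had the highest level in each retina, at least 2-fold over the next class there. By this rule 11 of the 36 members with at least 50 UMIs were enriched, beside 12.5% of the 15453 genes at that depth. Müller-like nuclei, the radial glia that span the retina, held 5 of them (RSPO1, FZD5, NOTUM, LGR6 and WNT5B) beside 2.15% of all genes. The connective/microglia cluster held 3 (WNT9B, RSPO4 and FRZB) beside 1.58%, the myelin cluster 2 (TCF7 and AXIN2 ENSABLG00000016661) beside 1.5%, and horizontal-like nuclei 1 (dkk3a) beside 1.44%. No member was enriched in cone-like, rod-like, bipolar-like, amacrine-like, ganglion/amacrine-like, RPE-like or iridophore-like nuclei. Of all genes, few were enriched there, at 0.12% in cone-like, 0.08% in bipolar-like, 0.34% in amacrine-like and 0.19% in ganglion/amacrine-like nuclei. The shares were 1.53% in rod-like, 2.23% in RPE-like and 1.35% in iridophore-like nuclei. At such shares, no call among 36 members does not set them apart from other genes. In some classes most nuclei carried rod or cone markers (69.7% amacrine-like, 76.8% bipolar-like, 87.2% ganglion/amacrine-like). With the deepest barcodes left out dkk3a no longer passed and 10 enriched members remained.

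Among the ligands, WNT11 and WNT5B, which are best known for β-catenin-independent signalling, were highest in Müller-like nuclei. WNT11 stood at 268 CPM in retina 1 and 178 in retina 2, and next came iridophore-like nuclei at 149 and 119 CPM. The retinas of these classes did not overlap, yet the ratio between the classes was below 2-fold, at 220 against 133 CPM. WNT5B was at 130 and 131 CPM in Müller-like nuclei, and the next class, the connective/microglia cluster, had 21.1 and 39.8 CPM. Both ligands were low in photoreceptors, with 5.54 CPM of WNT11 in cone-like and 1.01 in rod-like nuclei.

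wnt7aa, a member of the Wnt7 group that is known in mammals for the growth of brain vessels, was detected in every class. It was highest in rod-like nuclei, at 126 CPM in retina 1 and 109 in retina 2, with UMIs in 228 of 1508 nuclei. The other classes lay between 36.9 and 69.3 CPM, and barcodes with fewer than 100 UMIs, read as free RNA, had 57.3 CPM. The rod-like level stood above this range in each retina. Of the related genes, wnt7bb was highest in the myelin cluster at 48.2 and 17.0 CPM on 16 UMIs, and wnt7ba in Müller-like nuclei at 4.70 and 9.23 CPM.

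WNT9B was highest in the connective/microglia cluster, with 127 of 231 UMIs in 32 nuclei, 99.4 CPM in retina 1 and 114 in retina 2. The next class, the ganglion/amacrine-like cluster, held 61 UMIs at 3.52 CPM. At a finer clustering of all nuclei, a cluster of 102 nuclei with connective tissue markers had 173 CPM and another of 72 with microglial markers had 2.74 CPM. Some of these nuclei lay outside the connective/microglia cluster. In barcodes without a high doublet score, however, the connective/microglia cluster had no WNT9B UMI, so its level rests on barcodes with high scores. The cutoff for a high score, 0.0589, was below the median score of the cluster, 0.0711, so most of its nuclei were over it. Whether the nuclei with WNT9B are doublets was not tested. Of the other ligands with at least 50 UMIs, WNT4 had at most 6.74 CPM in any class, wnt2ba at most 12.8, and WNT2 reached 44.2 CPM in iridophore-like nuclei with all 14 UMIs in 1 nucleus. The remaining 10 ligand genes had between 1 and 32 UMIs in all nuclei.

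The frizzled receptors divided among classes. FZD3 was highest in RPE-like nuclei, the pigment epithelium behind the photoreceptors, at 193 and 225 CPM, followed by Müller-like nuclei at 165 and 151 CPM. The gene named fzd3a was instead highest in the myelin cluster, at 164 and 85.2 CPM, and horizontal-like nuclei had 59.5 and 58.0 CPM. FZD5, a receptor known for its role in eye field formation, was at 23.7 and 18.0 CPM in Müller-like nuclei and 3.16 CPM in RPE-like nuclei, the next class. Cone-like nuclei had 1.06 CPM of FZD3, 0.94 of fzd3a and no UMI of FZD4, FZD5 or FZD6. FZD4, the receptor of norrin in mammalian retinal vessels, was at 22.1 CPM in iridophore-like and 17.6 in RPE-like nuclei.

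The co-receptors showed opposite breadth. LRP6 lay between 44.0 and 84.2 CPM over all 11 classes, close to its 69.3 CPM in free RNA. LRP5, mutated in human vitreoretinopathy, ranged from 5.42 CPM in cone-like nuclei to 361 CPM in the connective/microglia cluster, where retina 1 had 290 and retina 2 had 408 CPM. Müller-like nuclei followed at 201 and 180 CPM. The even level of LRP6 was shared by the AXIN1 copy ENSABLG00000001165, at 36.2 to 50.8 CPM, and by the TCF7L1 copy ENSABLG00000022734, at 19.1 to 43.1 CPM.

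Of the LGR receptors of R-spondins, LGR6 was highest in Müller-like nuclei and LGR4 and LGR5 in RPE-like nuclei. LGR6 was at 646 CPM in retina 1 and 596 in retina 2 in Müller-like nuclei, with UMIs in 372 of 428 nuclei. Its next level was 79.5 CPM in RPE-like nuclei. LGR5 was highest in RPE-like nuclei, at 70.3 and 67.3 CPM, against 1.97 CPM in Müller-like nuclei. LGR4 lay between 19.9 and 56.3 CPM over all 11 classes. With high doublet scores left out LGR6 was at 1161 CPM in Müller-like nuclei and LGR5 at 170 CPM in RPE-like nuclei.

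The R-spondins with at least 50 UMIs were highest in 2 places, the Müller-like class and the connective/microglia cluster. RSPO1 was at 45.3 and 43.4 CPM in Müller-like nuclei, beside LGR6, and at 10.3 CPM in RPE-like nuclei. RSPO4 was at 52.87 and 65.4 CPM in the connective/microglia cluster, but on 11 nuclei, 1 of which held 23 of the 71 UMIs. The RSPO2 copy ENSABLG00000015535 was at 95.2 and 39.8 CPM there. In cone-like nuclei it had 116 UMIs in 59 nuclei, at 13.7 CPM against 12.04 CPM in free RNA.

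Of the secreted inhibitors, FRZB was highest in the connective/microglia cluster at 1320 CPM in retina 1 and 462 in retina 2, with 335 of 949 UMIs in 1 nucleus. At the finer clustering, the nuclei with connective tissue markers held 948 UMIs and those with microglial markers held 1. NOTUM was at 38.5 and 48.9 CPM in Müller-like nuclei and 7.65 CPM in the next class. It was carried by 65 of 428 Müller-like nuclei. dkk3a, whose family branch is not a typical Wnt inhibitor, was at 59.5 and 47.7 CPM in horizontal-like nuclei and 20.2 CPM in the ganglion/amacrine-like cluster. At a finer clustering, 86 nuclei with ganglion cell markers had 28.8 and 49.9 CPM of dkk3a, on 69 UMIs in 35 nuclei. SFRP5 reached 56.8 CPM in iridophore-like nuclei, but retina 1 had 101 and retina 2 had 17.8 CPM.

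Among the intracellular members, TCF7L2, which in mammals also times oligodendrocyte differentiation, was at 684 and 781 CPM in the myelin cluster, 416 and 438 in Müller-like nuclei, and 286 and 351 in RPE-like nuclei. Cone-like and rod-like nuclei had 9.55 and 5.39 CPM, far below its 123 CPM in free RNA. TCF7 was at 212 and 204 CPM in the myelin cluster and 58.1 CPM in RPE-like nuclei. The AXIN2 copy ENSABLG00000016661, of a gene that is a feedback inhibitor and common target of the canonical pathway, was at 198 and 170 CPM in the myelin cluster. Its partner copy ENSABLG00000004963 was at 20.7 CPM in Müller-like nuclei and 3.57 in the myelin cluster, so the copies had opposite orders between these classes.

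The TCF7L1 copy ENSABLG00000002889, of a factor that mostly acts as a repressor, was highest in iridophore-like nuclei at 682 and 522 CPM. Müller-like nuclei had 268 and 266 CPM and RPE-like nuclei 211 and 234 CPM, while cone-like nuclei had 1.41 CPM. LEF1 was at 108 and 113 CPM in iridophore-like nuclei, the reflecting pigment cells, and at 64.1 and 54.8 CPM in RPE-like nuclei. The AXIN1 copy ENSABLG00000018402 was at 104 and 102 CPM in horizontal-like nuclei and 57.2 CPM in the myelin cluster. The bipolar-like, amacrine-like and ganglion/amacrine-like nuclei led in none of the TCF/LEF or axin genes.

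Position was read from transcripts, since no nucleus had a measured place. Nuclei holding 1 or more tbx5a or tbx5b UMIs but no VAX2 UMI are called tbx5-marked, and those with VAX2 but no tbx5 UMI are called VAX2-marked. In the cone-like class, retina 1 had 54 tbx5-marked and 244 VAX2-marked nuclei, and retina 2 had 57 and 251. Their median depths were 6094 and 4807 UMIs. In the Müller-like class, retina 1 had 37 and 114 and retina 2 had 25 and 99, with medians of 6634 and 5948 UMIs. A member with at least 10 UMIs over both arms was called when its CPM differed by at least 2-fold and in the same direction in each retina.

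In Müller-like nuclei 23 members had at least 10 UMIs, and 5 were called higher in tbx5-marked nuclei beside 6.8% of 11967 genes. A further 2 were called lower beside 15.2% of genes. The median log2 ratio was 0.50 over the 23 members and -0.15 over all genes tested. The arms also differed in makeup, because 22.6% of tbx5-marked and 47.4% of VAX2-marked nuclei carried rod or cone markers, and 29.0% and 49.3% had high doublet scores. With barcodes that carried photoreceptor markers left out, 3 of the 7 calls remained (NOTUM and the TCF7L1 copy ENSABLG00000022734 higher, fzd3a lower).

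NOTUM, the Wnt deacylase, had the largest ratio of these members. It was at 133 CPM in tbx5-marked and 8.28 in VAX2-marked nuclei of retina 1, and at 283 and 7.63 CPM in those of retina 2. The arms did not overlap in either retina, and the log2 ratio was 4.67 (interval 3.88 to 5.56). The 108 UMIs of the tbx5-marked arm came from 36 of 62 nuclei, no nucleus holding more than 13, and the 15 of the VAX2-marked arm from 6 of 213. Without high doublet scores 80 UMIs stood against none, a log2 ratio of at least 5.33. Thinned to 1000 UMIs per nucleus, 14 stood against 1.

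**Figure D2:**
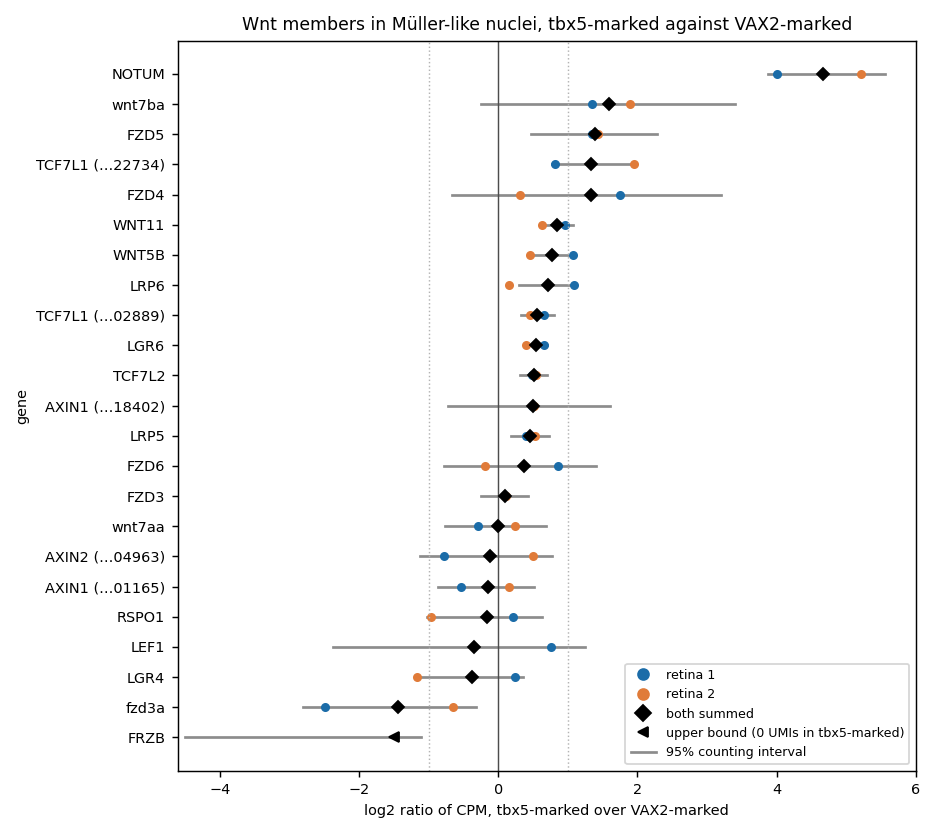
Log2 ratios of CPM between tbx5-marked and VAX2-marked Müller-like nuclei are shown for the 23 members with at least 10 UMIs, with diamonds for both retinas summed, circles for each retina where neither arm was at 0, and 95% counting intervals (that of FRZB has no lower end). NOTUM lies at 4.67, above the 2-fold lines at -1 and 1, and most other members lie between them.

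The other called receptors and factors moved less. FZD5 was at 41.9 against 16.6 CPM in retina 1 and 32.4 against 11.98 in retina 2, a log2 ratio of 1.39 (interval 0.48 to 2.28). The TCF7L1 copy ENSABLG00000022734 was at 76.9 against 43.4 CPM and 105 against 27.2 CPM, a log2 ratio of 1.34 (interval 0.77 to 1.90). These arms did not overlap in either gene. With retina 2 left out the ratio of TCF7L1 was 0.82, which is below 2-fold, and within Müller-like subcluster 4 (the most tbx5-rich) that of FZD5 was 0.42 (interval -1.09 to 2.22). wnt7ba, with 6 against 7 UMIs, and FZD4, with 5 against 7, passed the 2-fold rule at log2 ratios of 1.60 and 1.34, but their intervals held 0.

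The called decreases were fzd3a and FRZB. fzd3a was at 6.99 against 39.3 CPM in retina 1 and 20.2 against 31.6 in retina 2, a log2 ratio of -1.44 (interval -2.81 to -0.32). With retina 1 left out its ratio was -0.64, which is not past 2-fold, and within Müller-like subcluster 4 it was -0.26 (interval -2.49 to 2.37) on 6 against 3 UMIs. FRZB had no UMI in tbx5-marked nuclei and 30 in 6 VAX2-marked nuclei, 11 of them in 1. Its log2 ratio was at most -1.50 (interval up to -1.11). In a single retina this bound was -0.36 or -0.61, short of 2-fold. Its 15.9 CPM in the VAX2-marked arm was below the 30.6 CPM of free RNA, and cone-like nuclei had 0.59 CPM.

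Several abundant members were higher in tbx5-marked Müller-like nuclei in each retina, with ratios below 2-fold over the summed retinas. WNT11 was at 563 against 290 CPM in retina 1 and 332 against 214 in retina 2, a log2 ratio of 0.85 (interval 0.62 to 1.08). WNT5B had a log2 ratio of 0.77 (1.08 and 0.46 for retinas 1 and 2), LRP6 of 0.72 (1.09 and 0.16), the TCF7L1 copy ENSABLG00000002889 of 0.56 (0.66 and 0.46), LGR6 of 0.55 (0.66 and 0.41), TCF7L2 of 0.51 (0.48 and 0.54) and LRP5 of 0.46 (0.40 and 0.53). The intervals of all 7 left out 0. The arms lay in different subclusters of the class, described next with the ratios within the subcluster that held both. FZD3, at a log2 ratio of 0.10 (interval -0.24 to 0.43), wnt7aa, at 0.00 (interval -0.76 to 0.69), and RSPO1, at -0.16 (interval -1.02 to 0.63), did not differ beyond counting error. With high doublet scores left out, RSPO1 passed the 2-fold rule as higher in tbx5-marked nuclei.

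RSPO1 followed another pattern within the Müller-like class. The 106 nuclei with neither marker had 113 CPM of RSPO1 (71.6 in retina 1 and 147 in retina 2), against 31.9 CPM in tbx5-marked, 35.6 in VAX2-marked and 30.3 in nuclei with both. The unmarked nuclei had the lowest median depth, 3709 UMIs. NOTUM was at 37.6 CPM in the same unmarked nuclei, so the levels of these secreted modulators were highest in different marking states. Nuclei with both markers were the deepest, at a median of 18165 UMIs, and 97.9% of them had high doublet scores, so their levels are not read further.

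At a finer clustering, made without the members, tbx5 or VAX2 among the genes, all but 1 of the 428 Müller-like nuclei lay in 3 clusters, called subclusters 4, 5 and 15. Subclusters 4 and 15 carried Müller glia markers and had median doublet scores of 0.0334 and 0.0189. Subcluster 5 carried the same markers, but its leading genes held 1 amacrine marker, TH, and no Müller glia marker, so it stays unnamed. Its median doublet score was 0.115. Subcluster 4 (108 nuclei) had 293 CPM of tbx5 genes and 67.4 of VAX2, subcluster 5 (191 nuclei, of which 187 were in the Müller-like class) 39.7 and 251, and subcluster 15 (132 nuclei) 7.42 and 495. VAX2 was also at 206 CPM in nuclei with ganglion cell markers, 142 with microglial markers and 137 with connective tissue markers. Each was above the 67.4 CPM of subcluster 4, and the source of the VAX2 UMIs there was not tested. NOTUM was at 125 and 157 CPM in retinas 1 and 2 in subcluster 4, at 8.71 and 12.4 in subcluster 5, and had no UMI in subcluster 15, where 0 UMIs allow up to 6.84 CPM. RSPO1 had the same order in each retina, at 65.2 and 119 CPM, 44.4 and 18.6 CPM, and 7.68 and 0 CPM. fzd3a was highest in subcluster 15, at 69.1 and 89.7 CPM, against 13.8 and 24.9 CPM in subcluster 4 and 23.5 and 21.4 CPM in subcluster 5.

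**Figure D3:**
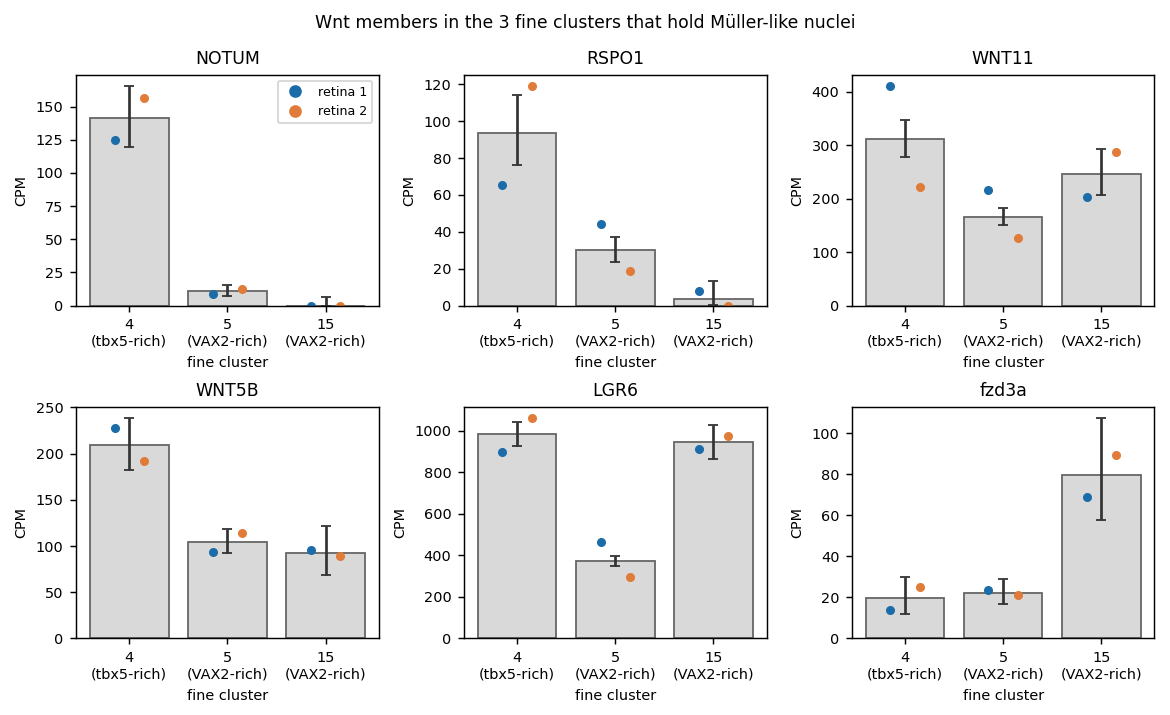
The CPM of 6 members is shown in subclusters 4, 5 and 15, which hold the Müller-like nuclei (bars for both retinas summed with 95% Poisson intervals, circles for retina 1 and retina 2). NOTUM and RSPO1 are highest in subcluster 4, fzd3a is highest in subcluster 15, and LGR6 is lowest in subcluster 5.

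The ligands WNT5B and wnt7ba were also highest in subcluster 4. WNT5B was at 227 and 192 CPM there, and the other two, at 105 and 92.7 CPM with the retinas summed, did not differ beyond their intervals. wnt7ba was at 17.8, 3.85 and 0 CPM on 19, 10 and 0 UMIs. WNT11 was at 311, 165 and 247 CPM, and LGR6 at 983, 371 and 944 CPM, so both were lowest in subcluster 5, which was also the deepest at a median of 8841 UMIs. The arms were spread unequally over the subclusters. Subcluster 4 held 53 tbx5-marked and 14 VAX2-marked nuclei, subcluster 5 held 4 and 5 tbx5-marked against 58 and 46 VAX2-marked nuclei of retinas 1 and 2, and subcluster 15 held no tbx5-marked nucleus against 48 and 46 VAX2-marked ones.

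The comparison could therefore be repeated within subcluster 4 alone. NOTUM had a log2 ratio of 2.06 there (interval 1.13 to 3.17), 1.56 in retina 1 and 2.45 in retina 2. WNT11 had one of 2.32 (interval 1.66 to 3.05), 2.54 and 1.96 in the retinas. The TCF7L1 copy ENSABLG00000022734 had 1.55 (interval 0.31 to 3.07), and LRP5, LGR6 and the TCF7L1 copy ENSABLG00000002889 had 0.77, 0.43 and 0.48 with intervals that left out 0, the second with a ratio of -0.03 in retina 2. WNT5B at -0.07 (interval -0.60 to 0.48), TCF7L2 at 0.06 (interval -0.25 to 0.39) and LRP6 at 0.24 (interval -0.45 to 0.98) did not differ beyond counting error there, and their retinas had opposite signs. RSPO1 was at 53.5 against 50.1 CPM in retina 1 and 20.7 against 218 CPM in retina 2, so the retinas disagreed. The 218 CPM rested on 18 UMIs over an arm of 6 nuclei, and the VAX2-marked arm of retina 1 had 5 UMIs. Over the whole class, 1 VAX2-marked nucleus held 15 RSPO1 UMIs. The most in 1 nucleus was 15 in subcluster 4, 7 in subcluster 5 and 2 in subcluster 15. So 15 of the 18 UMIs appear to come from 1 nucleus, and this difference stands on very few nuclei.

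In cone-like nuclei 11 members had at least 10 UMIs, and 2 were called higher in tbx5-marked nuclei beside 4.98% of 10311 genes. A single member was called lower beside 7.63% of genes. The arms held different cone types. Of the 111 tbx5-marked and 495 VAX2-marked nuclei, 54 and 24 were in the cluster led by opn1lw1, and 12 and 261 were rh2-dominant by the rule on opsin UMIs that follows. The median log2 ratio was 0.14 over the members and -0.04 over all genes tested. The 8 members not called included wnt7aa, at 55.8 against 45.0 CPM in retina 1 and 48.8 against 35.6 in retina 2, a log2 ratio of 0.38 (interval -0.18 to 0.91). LRP6, LGR4, LEF1, the AXIN1 copy ENSABLG00000001165 and the TCF7L1 copy ENSABLG00000022734 had log2 ratios between -0.30 and 0.15 with intervals that held 0.

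RSPO4 had 22 UMIs in tbx5-marked and none in VAX2-marked cone-like nuclei. It was at 22.3 and 34.2 CPM in the tbx5-marked arms of retinas 1 and 2. The log2 ratio was at least 4.76 (interval from 4.34). The UMIs came from 5 nuclei, so few nuclei carry this call. A single nucleus held all 8 UMIs of retina 1, so the level and direction there rest on 1 nucleus. The cluster with opn1sw1 among its leading genes held 15 of the UMIs, and within it the ratio was at least 3.17 (interval from 2.69). With retina 2 left out RSPO4 had 8 UMIs and was not tested.

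WNT11 was at 27.9 against 6.53 CPM in retina 1 and 19.5 against 2.74 in retina 2, a log2 ratio of 2.36 (interval 1.25 to 3.51) from 18 UMIs in 8 tbx5-marked and 13 in 7 VAX2-marked nuclei. Both arms were below the 38.7 CPM of WNT11 in free RNA. Within the opn1sw1 cluster the ratio was -0.15 (interval -2.05 to 1.53). In the cluster led by opn1lw1, with 54 tbx5-marked and 24 VAX2-marked nuclei, 13 UMIs stood against none (at least 1.52, interval from 1.01). TCF7L2 was called lower, at 2.79 against 10.9 CPM and 2.44 against 11.6 CPM, a log2 ratio of -2.11 (interval -5.22 to -0.14) on 2 against 32 UMIs. Both levels were far below the 123 CPM of free RNA. Within the opn1sw1 cluster, 0 UMIs of TCF7L2 stood against 12 (at most -1.15, interval up to -0.63). In the cluster led by opn1sw2 its ratio was -2.09 (interval -7.47 to 0.57) on 1 against 18 UMIs. The cluster led by opn1lw1 had 1 against 1 UMI.

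Cone-like nuclei were also sorted by the opsin that held at least 80% of their cone opsin UMIs, which gave 78 lws-dominant, 732 rh2-dominant, 146 sws1-dominant and 149 sws2-dominant nuclei. The RSPO2 copy ENSABLG00000015535 was at 48.9 and 51.7 CPM in sws1-dominant and 29.5 and 24.5 CPM in sws2-dominant nuclei of retinas 1 and 2. It was at 1.07 CPM in rh2-dominant nuclei and had no UMI in lws-dominant ones, where 0 UMIs allow up to 8.01 CPM. The short-wave opsin types thus did not overlap with the others in either retina. Median depths were between 4420 and 5421 UMIs.

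WNT11 was split differently among the cone types. It was at 40.5 and 18.7 CPM in lws-dominant and 29.9 and 23.7 CPM in sws1-dominant nuclei. It had 1 UMI in rh2-dominant nuclei, 0.27 CPM, and none in sws2-dominant nuclei, where 0 UMIs allow up to 4.39 CPM. The lws-dominant and sws1-dominant levels, 30.4 and 26.4 CPM with the retinas summed, were below the 38.7 CPM of free RNA, and the part of free RNA in them was not tested. TCF7L2 also differed among the types, at 28.5 CPM in sws2-dominant, 16.8 in sws1-dominant and 2.41 in rh2-dominant nuclei. wnt7aa was highest in sws1-dominant nuclei, at 78.8 and 45.2 CPM, against 30.4 to 33.7 CPM in the other types. LGR4 was lowest there, at 6.01 CPM against 23.8 to 34.7 CPM.

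**Figure D4:**
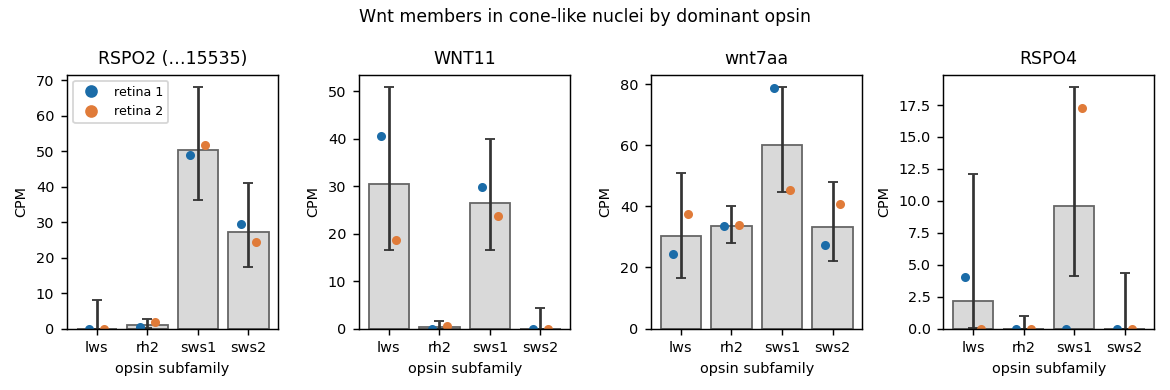
The CPM of 4 members is shown in cone-like nuclei by dominant opsin subfamily (bars for both retinas summed with 95% Poisson intervals, circles for retina 1 and retina 2). The RSPO2 copy is at 50.5 CPM in sws1-dominant and 27.4 in sws2-dominant nuclei, and WNT11 is at 30.4 in lws-dominant and 26.4 in sws1-dominant nuclei; RSPO4 rests on 8 UMIs of retina 2 in sws1-dominant nuclei.

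The position comparison was also run on a list of 79 other Wnt pathway genes (planar polarity proteins, glypicans, syndecans, ubiquitin ligases, co-repressors and feedback inhibitors). Unlike those of the members, these ratios were not recomputed within Müller-like subclusters, within cone types or without doublets or photoreceptor markers. In Müller-like nuclei 66 had at least 10 UMIs, of which 9 were called higher beside 6.8% of all genes and 5 lower beside 15.2%. The largest ratios in tbx5-marked nuclei were those of VANGL1 (ENSABLG00000001626), prickle1a, ROR2, prickle1b and VANGL2 (ENSABLG00000004924), at log2 ratios of 2.68, 2.27, 1.93, 1.68 and 1.44. The VANGL and prickle genes act in planar cell polarity, and ROR2 is a receptor of WNT5A in mammals. Other polarity genes of the list were not called, among them the second copies VANGL1 (ENSABLG00000004960) at -0.33 and VANGL2 (ENSABLG00000022620) at 0.15, and prickle2b at -0.76, PRICKLE3 at -0.32, celsr1a at -0.10 and CELSR2 at 0.33. prickle1a was at 252 against 38.3 CPM in retina 1 and 182 against 53.4 in retina 2. The lower genes were gpc1a, TLE3 (ENSABLG00000005425), SDC4 (ENSABLG00000016239), cthrc1a (ENSABLG00000014083) and tle2a, between -1.93 and -1.03, and the intervals of gpc1a, SDC4 and cthrc1a held 0.

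In cone-like nuclei 45 genes of the list had at least 10 UMIs, of which 7 were called higher beside 4.98% of all genes and 4 lower beside 7.63%. NKD1, a feedback inhibitor that binds dishevelled, was at 33.5 against 2.90 CPM in retina 1 and 58.6 against 4.10 in retina 2, a log2 ratio of 3.73 (interval 2.69 to 4.91). It was also called higher in Müller-like nuclei, at 689 against 272 CPM and 449 against 236 CPM. The next largest ratios in cone-like nuclei were those of GPC4, SDC4 (ENSABLG00000007714), PTK7 and VANGL2 (ENSABLG00000022620), between 1.62 and 2.19, on 11 to 29 UMIs each, and the intervals of PTK7 and VANGL2 held 0. The genes called lower were TLE4, LYPD6, RYK and TLE3 (ENSABLG00000000584), at log2 ratios of -3.02, -2.16, -1.25 and -1.09. TLE4 rested on 1 against 30 UMIs (interval -8.37 to -0.43) and LYPD6 on 2 against 33 (interval -5.26 to -0.19). RYK had 24 against 211 UMIs and this TLE3 copy 8 against 63. The median log2 ratio of the list was -0.04 in cone-like nuclei and -0.14 in Müller-like nuclei, beside -0.04 and -0.15 over all genes tested.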

How the data were processed

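Per the labels' protocols, nuclei were fixed, barcoded by combinatorial indexing and sequenced as technical sublibraries. The deposited matrix holds raw counts (UMIs per barcode and gene), and the barcode table holds the count of UMIs per barcode. The aligner, genome build and annotation were not given in the sources used here. All 119839 barcode sums of the matrix equal those of the barcode table, and no barcode was shared by the retinas. Sequences of the members were not used here.

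The members and all lists were chosen with earlier results of these data known. Barcodes with at least 500 UMIs were clustered with scanpy 1.11.5 (2451 variable genes without the members, opsins, tbx5 and vax genes, 40 principal components, 15 neighbours, Leiden resolution 1). A cluster was named from at least 3 markers with a fold of at least 2. Scrublet doublet scores were taken in each sublibrary (s1 and s2). Its thresholds differed, at 0.247 in s1, marking 0.063% of nuclei, and 0.0589 in s2, marking 36.7%. Which of them separates doublets better was not tested. That of s2 served for both. This marked 36.95% of nuclei, which the main values keep. Free RNA is the summed profile of 107803 barcodes under 100 UMIs (2741262 UMIs).

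Counts were summed per class and retina. Ratios have 95% exact conditional (Clopper-Pearson) intervals and levels 95% Poisson intervals. Intervals cover counting error only. A count of 0 in an arm was set to 3 UMIs over the arm, which gives a bound. This bound leaves out the counting error of the other arm, so the interval can reach further. Named members are those called in a position comparison, the 3 highest per class with at least 10 UMIs, and ligands with at least 50 UMIs; of the other pathway genes, at most 5 called on each side. The members given by cone opsin subfamily were chosen after their values were seen. The call rule was run on simulated counts with counting error only. They held no spread between nuclei, and the changed genes were well counted. They therefore do not test calls that rest on few UMIs or few nuclei. Alternatives included scaling by edgeR 4.0.16 TMM factors, and leaving out barcodes over 50000 UMIs was chosen after seeing the data.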

Additional observations from a re-analysis of the deposited data

Results flagged for a closer look

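Several genes had opposite directions in cone-like and Müller-like nuclei in each retina, with a 2-fold call in at least 1 class. The difference between the classes was not tested. TCF7L2, the only member among them, had a log2 ratio of tbx5-marked over VAX2-marked nuclei of -2.11 in cone-like and 0.51 in Müller-like nuclei. Its cone-like levels were below that of free RNA. Within Müller-like subcluster 4 its ratio was 0.06 (interval -0.25 to 0.39), with opposite signs in the retinas. Of the other pathway genes, tle2a had 1.11 and -1.03, gpc1a 1.53 and -1.93, RYK -1.25 and 0.98, and ZNRF3 -0.51 and 1.05. The intervals of ZNRF3 in cone-like nuclei (-1.14 to 0.07) and of gpc1a in Müller-like nuclei (-5.05 to 0.06) held 0.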

How the results depend on the processing

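In cone-like nuclei the count of called members was 3 and became 5 with no filter on low counts. It was 2 with nuclei thinned to 1000 UMIs, with none of the 3 calls kept, and 2 with marking by at least 2 UMIs, with WNT11 kept. In Müller-like nuclei the count was 7 and became 3 without barcodes with photoreceptor markers and 4 with thinned nuclei. Leaving out each retina in turn gave 4 to 5. With high doublet scores left out 4 of the 7 calls were kept, and RSPO1 higher and the AXIN2 copy ENSABLG00000004963 lower were added. TMM scaling kept every call in both classes. The WNT11 ratio in cone-like nuclei reversed to -0.15 within the opn1sw1 cluster and -0.24 within sws1-dominant nuclei, and the wnt7ba ratio in Müller-like nuclei reversed to -0.67 within subcluster 4. The causes were not tested. Of 119 recomputed log2 ratios of called members 111 stayed within the main interval or on the main side of a bound. Settings in which a member fell below the count filter, or had 0 UMIs in an arm without giving a bound, were not among the 119. Some main intervals were also wide, so this count says little about how firm the calls are. Of 92 recomputed levels 29 left the main interval, and leaving out high doublet scores took WNT11 in Müller-like nuclei to 433 CPM, FZD3 in RPE-like nuclei to 426 CPM, TCF7L2 in the myelin cluster to 1648 CPM and NOTUM in Müller-like nuclei to 82.4 CPM. Counts of called members within single clusters were not run. Both arms exist in each retina, so ratios were compared within retinas, and no paired test was made because the retina names match no label.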

Other observations

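Some members with few UMIs were held by few nuclei of 1 class. WNT8B had 30 UMIs in all nuclei, and 22 of them lay in 17 nuclei of the myelin cluster, at 43.3 CPM in retina 1 and 36.9 in retina 2, no nucleus having more than 2. It was also the leading gene of that cluster by fold, although the members were not among the genes used for clustering. In contrast, the 20 WNT2 UMIs of nuclei with connective tissue markers included 18 in 1 nucleus, and 30 of the 68 UMIs of the RSPO2 copy ENSABLG00000015535 there were in 1 nucleus.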
